A study of Glycine max with 10 samples.

Results

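Late germination was examined here as the change between axes at 24 hours after imbibition (24-HAI) and axes at 6-HAI. These time points comprise 4 of the 10 libraries of the series, 2 biological replicates for each, and every replicate was a pool of seeds. The material was the embryonic axis (the part of the embryo that holds the shoot apex, hypocotyl and radicle) of imbibed soybean seeds of the cultivar BRS 284, with 28 °C and 12 h of light a day shared by both groups. Axes were separated from the cotyledons, and their RNA was sequenced as paired-end reads of 100 bases.

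Expression is given as FPKM, read pairs per kilobase of transcript, scaled by the mapped total of a library. The authors combined both replicates into 1 FPKM per gene and time point, so replicate error is unknown, every call below rests on a fold limit alone, and no test was run. Depth behind a value is unknown because such FPKM hold no counts. The 24-HAI and 6-HAI columns were compared for 54154 loci, and the 12-HAI column was used to place a change before or after 12 hours. In whole axes, more or fewer cells of a type and more or less RNA per cell cannot be told apart. Under a daily light cycle the time points also differ in clock hour, and this cannot be told apart from time after imbibition. Tissue identity was not checked against marker genes, because the RefSeq table matched 0 of the identifiers, and gene names are therefore those given in the study. No DNA or protein sequence could be tied to these identifiers, so none is shown.

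Germination ends when the radicle breaks through the seed coat, and the hours before it are a handover between programmes. Abscisic acid (ABA) keeps the maturation programme of the seed active and holds germination back, whereas gibberellin (GA), ethylene and brassinosteroids promote growth of the axis. Transcripts stored in the dry seed are degraded during imbibition, while transcripts for growth and for the seedling accumulate.

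Of the 54154 loci, 32642 (60.3%) reached 1 FPKM at 24-HAI or 6-HAI and are called expressed below. At 24-HAI 31081 loci reached this level, against 27302 loci at 6-HAI, and 25741 loci did so at both. A locus was counted as higher when its FPKM at 24-HAI was at least 2.4 times that at 6-HAI and reached 1 FPKM, and as lower when the opposite ratio reached 2.4 with at least 1 FPKM at 6-HAI. By this rule 8410 loci (25.8% of those expressed) were higher at 24-HAI and 5555 loci (17.0%) were lower, while 18677 loci (57.2%) were neither. These shares are the background for every gene list below. Higher loci made up 60.2% of all calls, and 48.6% after quantile normalization, so which direction prevailed depended on the scaling.

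**Figure D1:**
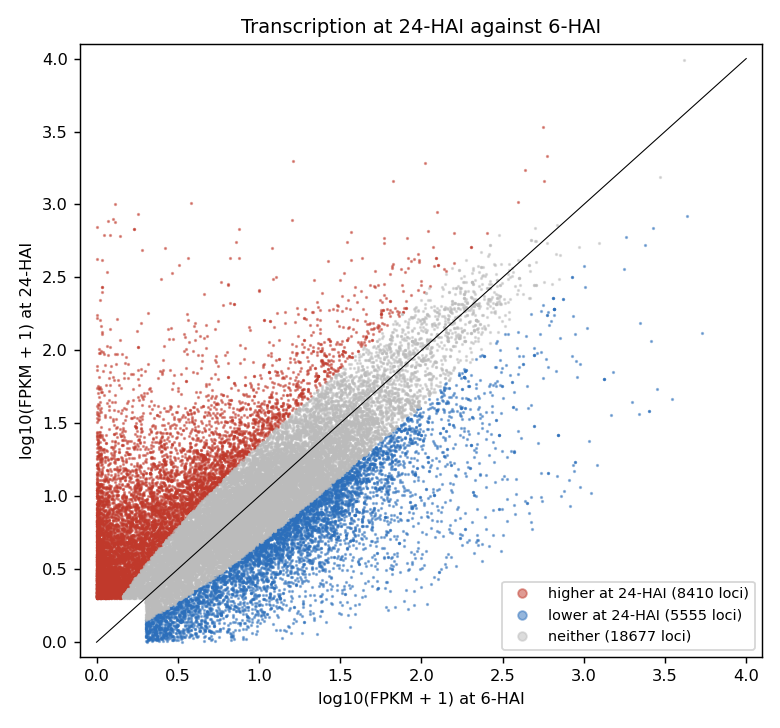
FPKM of the 32642 expressed loci at 24-HAI (vertical axis) and 6-HAI (horizontal axis), each as log10(FPKM + 1), with 1 point per locus and a line of equality. The 8410 higher loci lie above the line and crowd the left edge, where 6-HAI values are near 0, while the 5555 lower loci extend to the highest 6-HAI values.

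Loci that were higher and loci that were lower differed in level. The higher loci had a median of 5.66 FPKM at 24-HAI against 0.699 FPKM at 6-HAI, and 4862 of them (57.8%) started under 1 FPKM. Lower loci had a median of 3.8 FPKM at 24-HAI against 16.7 FPKM at 6-HAI, and 1189 of them (21.4%) ended under 1 FPKM. Thus the rises mostly began from little or no transcript, whereas most falls left a measurable level behind. A minimum of 5 FPKM at the higher time point left 4517 higher and 4407 lower loci.

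Large ratios were more frequent among rises. Where the larger value reached 10 FPKM and the smaller one was above 0, 599 loci were at least 20 times higher and 260 loci at least 20 times lower. At 100-fold the numbers were 240 higher and 9 lower. On the log2(FPKM + 1) scale, which understates the change of low genes, the median change was 1.58 among higher loci and -1.58 among lower loci, against 0.06 over all expressed loci (quartiles -0.72 and 0.96).

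The share of calls changed with abundance. Between 1 and 5 FPKM at the higher time point, 39.1% of loci were higher and 11.5% lower. Between 20 and 100 FPKM the order was turned round, with 16.7% higher and 25.8% lower. At 100 FPKM or more, 303 of 1527 loci (19.8%) were higher and 499 (32.7%) were lower. On FPKM without further scaling, abundant loci were therefore more often lower than higher, and weakly expressed loci the reverse. Other scalings, on which the prevailing direction over all calls depended, were not tried by level.

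In total, 5340 loci were under 1 FPKM at 6-HAI and reached it by 24-HAI. Their median at 24-HAI was 2.54 FPKM, 591 of them reached 10 FPKM and 35 reached 100 FPKM. The opposite change, from 1 FPKM or more at 6-HAI to less at 24-HAI, was seen in 1561 loci with a median of 1.99 FPKM at 6-HAI, 95 of which had been at 10 FPKM or more. By 12-HAI, after 33.3% of the time, 39.0% of the loci switched on had reached 1 FPKM, and 29.5% of those switched off were already under it. Quantile normalization gave 3293 loci in each direction, equal by construction since it gives all time points one distribution.

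Exact zeros need care, because a listed 0 can be a failed estimate. At 6-HAI 246 of the loci switched on were listed at 0, and 24 of these had 10 FPKM or more at 24-HAI. Of the 24 loci, 15 were also listed at 0 in dry seeds and at 3-HAI, and 4 were higher at 12-HAI than at 24-HAI. These loci are short, with a median span of 1553 bases from first to last annotated base against 3825 bases for expressed loci. In the other direction 2 loci were listed at 0 at 24-HAI.

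Summed over all loci, FPKM came to 596044 at 24-HAI and 692415 at 6-HAI. The higher loci together held 30.1% of this sum at 24-HAI against 4.47% at 6-HAI, with 12.5% at 12-HAI. Of the 67948 FPKM that they held at 12-HAI, 7356 FPKM came from Glyma17g03040 alone, a locus with doubtful values described below. Lower loci held 8.57% at 24-HAI against 41.0% at 6-HAI, with 25.4% at 12-HAI. The remaining loci, which carry no call, held most of the sum, 61.3% at 24-HAI and 54.5% at 6-HAI. That the higher loci gained and the lower loci lost share follows from how they were chosen. The 100 most abundant loci held 12.4% of the sum at 24-HAI and 15.7% at 6-HAI, and 20 loci belonged to both sets. Of the 100 at 24-HAI, 62 were higher and 5 lower, and 14 had been under 1 FPKM at 6-HAI. Of the 100 at 6-HAI, 3 were higher and 80 lower by 24-HAI, and the median fall of these 80 was 9.42-fold.

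Values in dry seeds entered neither side of the comparison, and they differed between the groups. The rule favours low 6-HAI values among higher loci and high ones among lower loci. Where levels in dry seeds and at 6-HAI go together, a difference in dry seeds follows in part from that choice. How large this part is was not tested. The median in dry seeds was 0.223 FPKM for loci that were higher at 24-HAI, 22.8 FPKM for loci that were lower, and 6.90 FPKM for the rest of the expressed loci. At least 10 FPKM in dry seeds was reached by 4.24% of higher loci, 68.0% of lower loci and 40.2% of the rest. Loci that fell between 6 and 24 hours were therefore mostly transcripts already abundant in the dry seed. Among lower loci the highest value of the series came in dry seeds in 2780 loci (50.0%). In 2170 loci (39.1%) it came at 3-HAI, and in 578 loci (10.4%) at 6-HAI. Over all expressed loci these shares were 23.1% (dry seeds), 19.8% (3-HAI) and 6.46% (6-HAI). The rule bars a maximum at 24-HAI for lower loci, so these shares are partly set by the choice.

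**Figure D2:**
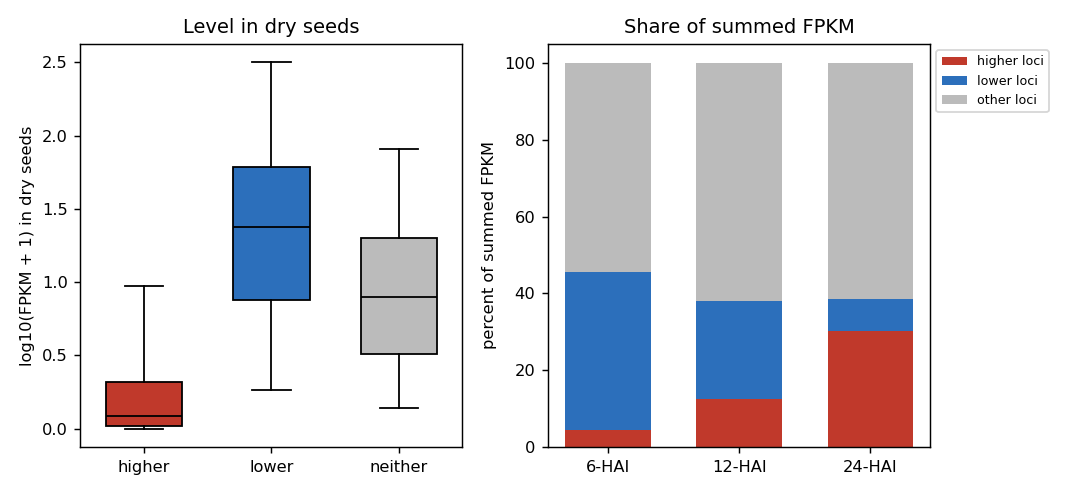
Left, log10(FPKM + 1) in dry seeds for the 8410 higher, 5555 lower and 18677 other expressed loci, with the median as a line, quartiles as boxes and whiskers at percentiles 5 and 95. Right, percent of summed FPKM held by these groups at 6, 12 and 24-HAI (other loci here include those not expressed). Lower loci had the highest levels in dry seeds, and their share of the sum was 8.57% at 24-HAI against 41.0% at 6-HAI.

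Timing was read from the part of the log2(FPKM + 1) change that was already present at 12-HAI. The first step covers 6 of the 18 hours, or 33.3% of the time. The median was 33.4% for higher loci (quartiles 14.6% and 50.9%) and 34.9% for lower loci (quartiles 24.5% and 48.0%), so the median change on this scale was spread about evenly over the hours. Per hour, the median change of higher loci was 0.09 log2 units both before and after 12-HAI. For lower loci it was -0.10 before and -0.09 after.

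Around these medians the loci differed widely. Among higher loci 3586 (42.6%) had made less than 33.3% of their change by 12-HAI, 3302 (39.3%) between 33.3% and 66.7%, and 776 (9.23%) more. A further 614 higher loci (7.30%) were lower at 12-HAI than at 6-HAI before they rose, and 132 (1.57%) had passed their 24-HAI value at 12-HAI. Lower loci fell into the same classes with 2374 (42.7%), 2562 (46.1%) and 368 (6.62%), while 181 (3.26%) were above their 6-HAI value at 12-HAI and 70 (1.26%) were below their 24-HAI value. Since an even change would stand at 33.3% by 12-HAI, the first class holds all changes slower than even and the last only those well ahead of it, so the sizes of these classes do not compare late with early change. On linear FPKM the share with less than 33.3% of the change by 12-HAI was 64.9% for higher loci but 18.4% for lower loci, and with 0.1 FPKM added before the log2 in place of 1 FPKM it was 30.8% for higher and 49.1% for lower loci, so these shares depended on the scale.

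Timing was also read by steps of at least 2.4-fold within an interval, with at least 1 FPKM at the higher end of the step. Of the higher loci, 3953 (47.0%) made such a step only after 12-HAI, 1204 (14.3%) only before it, 1202 (14.3%) in both intervals and 2051 (24.4%) in neither. Among the lower loci the numbers were 2376 (42.8%) only after, 427 (7.69%) only before, 506 (9.11%) in both and 2246 (40.4%) in neither. Change without such a step was thus the second largest class in both directions, and its share was larger among falls than among rises. This class can include loci that changed 2.4-fold within an interval while under 1 FPKM. Since the second interval is longer, these counts do not compare rates. Among expressed loci without a call, 10 were at least 2.4-fold above both end values at 12-HAI and 63 were as far below both. Smaller excursions are not in these counts, nor are loci that reached 1 FPKM at 12-HAI but at neither end. Of the expressed loci without a call, 2552 (13.7%) had their highest value of the series at 12-HAI.

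**Figure D3:**
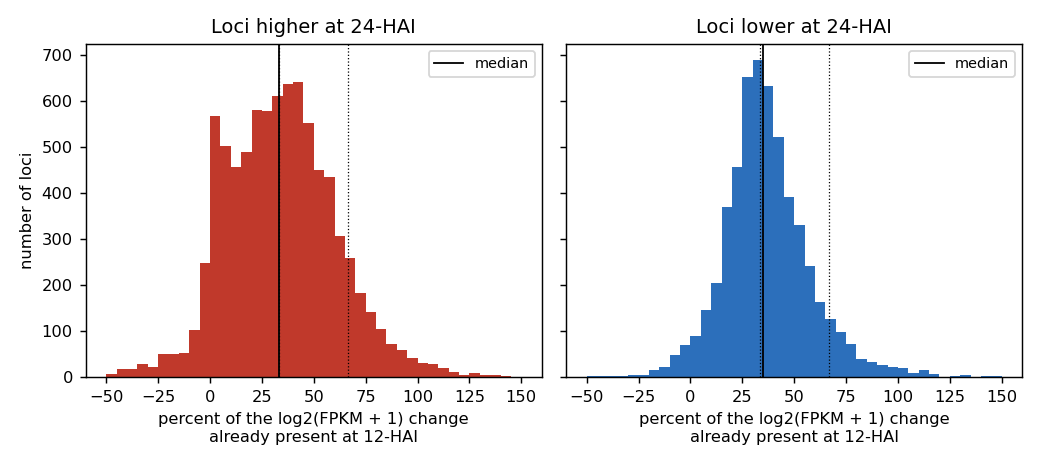
Number of loci by the percent of their log2(FPKM + 1) change that was present at 12-HAI, for the 8410 higher loci (left) and the 5555 lower loci (right), in bins of 5 percentage points. Solid lines are the medians (33.4% and 34.9%), dotted lines mark 33.3% and 66.7%, and 32 higher and 10 lower loci lie outside the axis. Most of both distributions lies between 0% and 66.7%, and the higher loci have an added peak just above 0%.

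The loci at the ends of the distribution have no annotation in the sources used here. Glyma14g37440 on chromosome 14 from 46713761 to 46720531 had the largest rise among loci that share their values with no other, with 1011 FPKM at 24-HAI against 0.296 FPKM at 6-HAI, with 21.3 FPKM at 12-HAI (log2 change 9.61). Next came Glyma17g03040 on chromosome 17 from 2031606 to 2032478, which had 700 FPKM at 24-HAI and was listed at 0 at 6-HAI. Its value of 7356 FPKM at 12-HAI, after listed zeros at every earlier time point, makes the 0 at 6-HAI doubtful, and no fold change is given.

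The largest fall was that of Glyma01g29480 on chromosome 1 from 39799516 to 39801235, with 9.52 FPKM at 24-HAI against 1106 FPKM at 6-HAI, with 271 FPKM at 12-HAI (log2 change -6.72). Glyma20g28550, on chromosome 20 from 37503339 to 37504773, had 7.61 FPKM at 24-HAI against 826 FPKM at 6-HAI, with 187 FPKM at 12-HAI (log2 change -6.59). Both followed the common timing, with 30.2% and 32.5% of the change present at 12-HAI. Both had also been abundant in dry seeds, Glyma01g29480 with 4543 FPKM and Glyma20g28550 with 2141 FPKM.

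The named genes were 43 loci of hormone pathways, early regulators and metabolism. Of these, 11 were higher (background 25.8%), 10 were lower (background 17.0%) and 22 were neither, and the median log2 change was -0.21 against 0.06 over all expressed loci. The lists were drawn up with earlier results of these data known, so their counts are descriptions of the listed genes. Of the 11 higher genes, 6 had made less than 33.3% of their change by 12-HAI, as had 5 of the 10 lower genes.

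Of 8 ABA genes, 5 were lower at 24-HAI (background 17.0%), 1 was higher (background 25.8%) and 2 were neither, with a median log2 change of -2.75. The study described the ABI3 and CYP707A genes among them by their change up to 24-HAI in these same samples. The counts and the median are therefore not independent of that choice. The fall was largest for the gene of the phosphatase named HAI3 (Glyma01g43460, chromosome 1 from 54468060 to 54470053), an ABA-induced protein phosphatase. It had 2.43 FPKM at 24-HAI against 87.1 FPKM at 6-HAI, 35.9 times less, and 29.5 FPKM at 12-HAI. Its log2 change of -4.68 lay at percentile 0.325 of all expressed loci.

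ABI3 is a transcription factor that maintains the ABA-dependent maturation programme of seeds. Its gene Glyma18g38490 had 7.11 FPKM at 24-HAI against 126 FPKM at 6-HAI, with 65.9 FPKM at 12-HAI (log2 change -3.96). The other copy, Glyma08g47240, had 2.70 FPKM at 24-HAI against 50.9 FPKM at 6-HAI, with 26.3 FPKM at 12-HAI (log2 change -3.81). The copies thus differed in level but fell by similar factors, 17.7 and 18.9, and with like timing, since 23.2% and 24.4% of the change was present at 12-HAI.

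The genes for AIP2, the E3 ligase that in Arabidopsis targets ABI3 for degradation, stayed within the limits. Glyma17g33631 had 21.2 FPKM at 24-HAI against 24.6 FPKM at 6-HAI, and its log2 change of -0.21 turned to 0.05 after quantile normalization and to 0.0017 when sums were made equal between time points. Glyma14g12380 had 17.0 FPKM at 24-HAI against 24.5 FPKM at 6-HAI, with 15.6 FPKM at 12-HAI. Beside the falls of both ABI3 transcripts, which stayed above 1 FPKM, the ratio of 24-HAI to 6-HAI for these ligase genes was 0.862 and 0.696.

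Enzymes of the CYP707A family inactivate ABA by hydroxylation, and their genes moved in opposite directions. CYP707A2 (Glyma09g41960) had 2.59 FPKM at 24-HAI against 66.7 FPKM at 6-HAI, with 31.5 FPKM at 12-HAI, a fall of 25.8-fold. CYP707A1 (Glyma16g20490) had 14.2 FPKM at 24-HAI against 0.160 FPKM at 6-HAI, with 3.04 FPKM at 12-HAI, a ratio of 88.5 from a start under 1 FPKM. The rise of CYP707A1 was further along at 12-HAI (48.5% of its log2 change) than the fall of CYP707A2 (24.99%).

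PYL proteins are ABA receptors. The PYL gene Glyma16g02910 (chromosome 16 from 2504375 to 2507348) had 16.9 FPKM at 24-HAI against 56.9 FPKM at 6-HAI, with 31.2 FPKM at 12-HAI. Its fall of 3.37-fold was the smallest of the ABA genes that were lower, and 49.8% of its log2 change was present at 12-HAI, after 33.3% of the time.

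Of 10 ethylene genes, 6 were higher (background 25.8%), 0 were lower (background 17.0%) and 4 were neither, with a median log2 change of 1.46. All 6 encode ACC oxidase, the enzyme of the last step of ethylene synthesis, out of 7 ACC oxidase genes listed. Most of the 7 were picked in an earlier look at these data for passing 10 FPKM after 6-HAI or for their 24-HAI maximum, so this count says nothing of the family, whose other genes were not analysed here. The highest level at 24-HAI was that of Glyma06g12340 (chromosome 6 from 9526564 to 9528716), with 178 FPKM at 24-HAI against 2.61 FPKM at 6-HAI, with 23.4 FPKM at 12-HAI. Glyma15g11930 (chromosome 15 from 8839249 to 8841812) had 50.4 FPKM at 24-HAI against 1.06 FPKM at 6-HAI, with 11.2 FPKM at 12-HAI. At 12-HAI 49.0% and 55.4% of these log2 changes were present, ahead of an even rise.

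Glyma09g01110 (chromosome 9 from 660479 to 663028) had 55.3 FPKM at 24-HAI against 0.0552 FPKM at 6-HAI, with 2.07 FPKM at 12-HAI. On the log2(FPKM + 1) scale 26.9% of its change was present at 12-HAI. As plain ratios, however, Glyma09g01110 rose 37.6-fold before 12-HAI and 26.6-fold after, so its timing depends on the added 1 FPKM. Its log2 change of 5.74 was the largest of the list and lay at percentile 99.8, while its ratio rests on a start near 0. At lower levels, Glyma14g05390 had 3.15 FPKM at 24-HAI against 0.194 FPKM at 6-HAI, and Glyma02g43560 had 2.65 FPKM against 0.146 FPKM. For these late genes 8.28% and 21.1% of the change was present at 12-HAI.

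The remaining ACC oxidase genes changed less. Glyma07g15480 had 10.5 FPKM at 24-HAI against 3.86 FPKM at 6-HAI, 2.72 times as much and close to the limit. Glyma17g01330 had 34.2 FPKM at 24-HAI against 23.0 FPKM at 6-HAI and was not called, having stood at 59.8 FPKM at 12-HAI. ACC oxidase transcripts thus included a gene with its peak at 12-HAI, genes that rose through both intervals, and genes that rose mainly after 12 hours.

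Ethylene receptors are membrane proteins that are silenced when they bind the hormone, and the listed genes for them showed no call. Other receptor genes of the study were not analysed here, so this says nothing of the family. The ETR1 gene Glyma12g37050 (chromosome 12 from 40021120 to 40027108) had 43.6 FPKM at 24-HAI against 62.8 FPKM at 6-HAI, after 83.8 FPKM at 12-HAI, but 3 neighbouring loci carry identical values, so these cannot be assigned to it alone. The ETR1 gene Glyma09g00490 (chromosome 9 from 215957 to 223116) had 10.3 FPKM at 24-HAI against 17.2 FPKM at 6-HAI, with 14.6 FPKM at 12-HAI. The receptor gene Glyma10g33240 had 14.7 FPKM at 24-HAI against 22.2 FPKM at 6-HAI, with 22.3 FPKM at 12-HAI. Their ratios of 24-HAI to 6-HAI lay between 0.601 and 0.695, within the limits of the rule.

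For GA, 0 of 2 genes of GA3ox1, the oxidase that forms bioactive GA, were called higher (background 25.8%) and 0 lower (background 17.0%). Glyma13g43850 (chromosome 13 from 43429949 to 43432303) had 28.4 FPKM at 24-HAI against 13.4 FPKM at 6-HAI, 2.12 times as much, and it passed the limit after quantile normalization and with equal sums. Of its log2 change, 88.1% was present at 12-HAI, when it had 26.0 FPKM. Glyma15g01500 (chromosome 15 from 965129 to 967177) had 5.53 FPKM at 24-HAI against 4.45 FPKM at 6-HAI, but stood at 16.2 FPKM at 12-HAI. Both copies had therefore made their rise before 12 hours, and Glyma15g01500 was close to its 6-HAI value again at 24-HAI.

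The 7 kinase genes were listed by the study because they are induced at 3-HAI in these same samples, so a later fall is not independent of that choice. Of these, 0 were higher (background 25.8%), 1 was lower (background 17.0%) and 6 were neither, with a median log2 change of -0.42. The MAP kinase gene Glyma07g38510 had 9.21 FPKM at 24-HAI against 23.2 FPKM at 6-HAI, 2.52 times less, a call lost after median-ratio scaling and with equal sums. Glyma12g22660, the homolog of the cell wall sensor THESEUS1, had 22.0 FPKM at 24-HAI against 9.45 FPKM at 6-HAI, with 8.36 FPKM at 12-HAI. Its ratio of 2.33 missed the limit, but passed it under each of the 3 other scalings (median ratio, quantile and equal sums), and the entire increase came after 12 hours. The ratio of 24-HAI to 12-HAI was 2.64. The study had already singled out this gene among the 7 for its induction between 12 and 24-HAI in these same samples.

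The brassinosteroid receptor homolog of BRI1, Glyma06g15270, had 11.2 FPKM at 24-HAI against 16.7 FPKM at 6-HAI. The TMK1 homolog Glyma14g39290 had 10.3 FPKM at 24-HAI against 12.5 FPKM at 6-HAI, and the extensin-like receptor kinase Glyma09g32390 had 15.0 FPKM against 20.3 FPKM. Apart from these, Glyma07g10695, whose values are identical to those of a neighbouring locus, had 33.6 FPKM at 24-HAI against 37.5 FPKM at 6-HAI, and its log2 change of -0.16 turned to 0.09 after quantile normalization and to 0.05 with equal sums. At 12-HAI it stood at 66.0 FPKM, well above both ends, whereas the receptor Glyma10g33240, which also belongs to this list, was level with its 6-HAI value.

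All 3 transcription factor genes and the cell wall gene, likewise named by the study for their early induction in these samples, were lower at 24-HAI (background 17.0%). The study described the ethylene response factor gene among them also by its fall at 24-HAI, so its call is not independent of that choice. The LOB domain gene Glyma13g07590 had 10.04 FPKM at 24-HAI against 124 FPKM at 6-HAI, with 30.4 FPKM at 12-HAI, 12.3 times less. The LOB domain gene Glyma07g10180 had 19.1 FPKM at 24-HAI against 75.03 FPKM at 6-HAI, with 34.1 FPKM at 12-HAI, 3.93 times less. Both had made most of the log2 change by 12-HAI (56.9% and 58.2%), which was further than the median of lower loci.

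Between 6 and 24 hours the ethylene response factor gene Glyma02g08835 fell later, although it had already come down from 237 FPKM at 3-HAI. It had 7.56 FPKM at 24-HAI against 87.9 FPKM at 6-HAI, with 55.4 FPKM at 12-HAI, a fall of 11.6-fold with 19.4% of the log2 change present at 12-HAI. Glyma11g36730 encodes a xyloglucan endotransglucosylase, an enzyme that loosens and rejoins hemicellulose in growing cell walls, and it fell early. It had 14.5 FPKM at 24-HAI against 65.9 FPKM at 6-HAI, with 18.3 FPKM at 12-HAI, with 85.1% of the log2 change present at 12-HAI.

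In carbon metabolism, 1 of 3 genes was higher (background 25.8%) and 0 were lower (background 17.0%), too few genes to tell from the background. Malate synthase, a glyoxylate cycle enzyme that serves the conversion of oil into sugar, had 24.1 FPKM at 24-HAI against 6.03 FPKM at 6-HAI in its gene Glyma17g13730. This 3.999-fold difference had been made by 12-HAI, when the value was 32.4 FPKM. The genes for the last steps of sucrose synthesis had lower values at 24-HAI that stayed within the limit. Sucrose-phosphate synthase (Glyma13g23060) had 17.9 FPKM at 24-HAI against 39.7 FPKM at 6-HAI, with 38.4 FPKM at 12-HAI, and sucrose-phosphate phosphatase (Glyma20g16990) had 17.8 FPKM against 29.9 FPKM and 26.6 FPKM at 12-HAI. Little of either difference was present at 12-HAI (4.11% and 22.8%), in contrast to malate synthase.

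The shikimate pathway makes chorismate, from which phenylalanine, tyrosine and folate are built. Of its 10 listed genes, 3 were higher (background 25.8%), 0 were lower (background 17.0%) and 7 were neither, and the median log2 change was 0.24. The count of higher genes is thus near the background. The 3 higher genes are among the 7 listed genes that act downstream of chorismate, and the other 4 of these were neither. So few genes cannot tie the rises to a part of the pathway. The aminodeoxychorismate lyase gene of folate synthesis, Glyma12g35520, had 6.28 FPKM at 24-HAI against 0.127 FPKM at 6-HAI, with 1.07 FPKM at 12-HAI. The arogenate dehydrogenase gene of tyrosine synthesis, Glyma11g35760, had 6.20 FPKM at 24-HAI against 0.374 FPKM at 6-HAI, with 1.14 FPKM at 12-HAI. Of the genes for arogenate dehydratase, which serves phenylalanine synthesis, Glyma17g05290 had 14.7 FPKM at 24-HAI against 3.22 FPKM at 6-HAI, a ratio of 4.56. On the log2(FPKM + 1) scale these 3 genes had 26.6% to 32.7% of the change present at 12-HAI. As plain ratios, Glyma12g35520 rose 8.43-fold before 12-HAI and 5.85-fold after. Glyma11g35760 rose 3.04-fold and 5.46-fold, and Glyma17g05290 1.69-fold and 2.69-fold, so the likeness in timing depends on the added 1 FPKM.

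The other copy of arogenate dehydratase, Glyma11g15750, had 22.0 FPKM at 24-HAI against 25.6 FPKM at 6-HAI, and its log2 change of -0.21 turned to 0.04 after quantile normalization. At the entry of the pathway, DAHP synthase (Glyma15g06020, whose values are identical to those of a neighbour) had 37.9 FPKM at 24-HAI against 72.2 FPKM at 6-HAI, with most of this difference present at 12-HAI (42.3 FPKM). Chorismate synthase (Glyma20g31980), at the end of the common route, had 45.0 FPKM at 24-HAI against 28.7 FPKM at 6-HAI. Neither passed the limit, with ratios of 24-HAI to 6-HAI of 0.524 and 1.57.

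Of the remaining genes of the pathway, shikimate kinase (Glyma04g39700) dipped to 5.57 FPKM at 12-HAI, with 12.5 FPKM at 24-HAI against 9.75 FPKM at 6-HAI. Chorismate mutase (Glyma01g06660) had 8.02 FPKM at 24-HAI against 7.38 FPKM at 6-HAI. The aminodeoxychorismate synthase genes Glyma10g35580 and Glyma20g31966 had ratios of 24-HAI to 6-HAI of 1.004 and 1.18, and the log2 change of the second, 0.15, turned to -0.37 after quantile normalization.

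**Figure D4:**
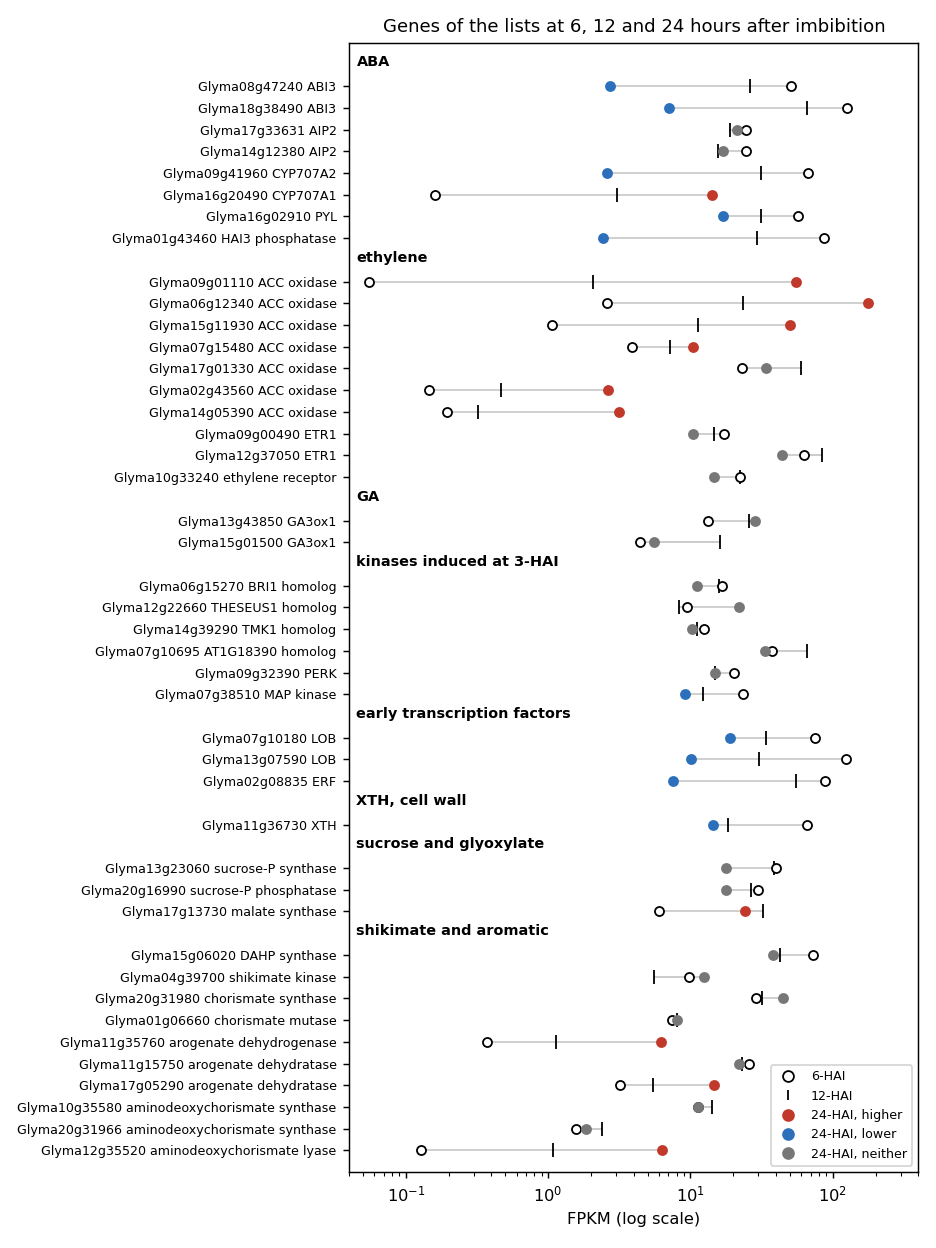
FPKM on a log axis of the 43 named genes at 6-HAI (open circles), 12-HAI (ticks) and 24-HAI (filled circles, red where higher, blue where lower, grey where neither), by list. Falls of ABA genes and of the early transcription factors and rises of 6 of 7 ACC oxidase genes stand out. In all, 11 genes were higher (background 25.8%) and 10 lower (background 17.0%). Several of these genes were named for their values in these same data.

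Position and gene size were compared as properties that the rule did not use. Across the 20 chromosomes the share of expressed loci that were higher ran from 24.3% on chromosome 5 to 28.1% on chromosome 18, and the share that were lower ran from 14.9% on chromosome 9 to 19.0% on chromosome 6. No chromosome thus departed far from the background. On unplaced scaffolds 13 of 93 expressed loci were higher (14.0%) and 40 were lower (43.0%). Of the 93 loci, 22 share all their values with another locus, and 11 of the 40 lower loci do so.

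Neighbouring loci agreed slightly more often than the background. Among 27999 expressed loci that share their values with no other, the next locus along the chromosome was higher after 31.2% of higher loci, against 27.8% of all these loci, and lower after 21% of lower loci, against 16.7%. Runs of at least 3 consecutive expressed loci with the same call numbered 601 for higher loci and 298 for lower loci, when loci with shared values were kept. The longest runs held 11 higher loci each, on chromosome 1 from 3514699 to 3721262 and on chromosome 3 from 5585088 to 5953909. Of the lower loci, the longest runs held 10 loci each, on chromosome 13 from 27818918 to 27870386 and on chromosome 17 from 23948437 to 24003012. In each of these lower runs 4 of the 10 loci share all values with another locus, as do 394 of the 1045 loci in lower runs and 343 of the 2120 in higher runs.

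Calls were more frequent among short loci. In the shortest span class, with spans up to 2223 bases, 29.1% of expressed loci were higher and 24.7% lower. In the longest of the 4 classes of equal size, with spans over 5882 bases, 20.7% were higher and 12.0% lower. The median FPKM at the higher time point was 7.75 in the shortest class and 9.74 in the longest, and the part of this in the result was not tested. With a minimum of 5 FPKM, chosen after the values were seen, the shortest class still had 23.1% higher and 28.6% lower loci, and the longest 15.6% and 14.2%.

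**Figure D5:**
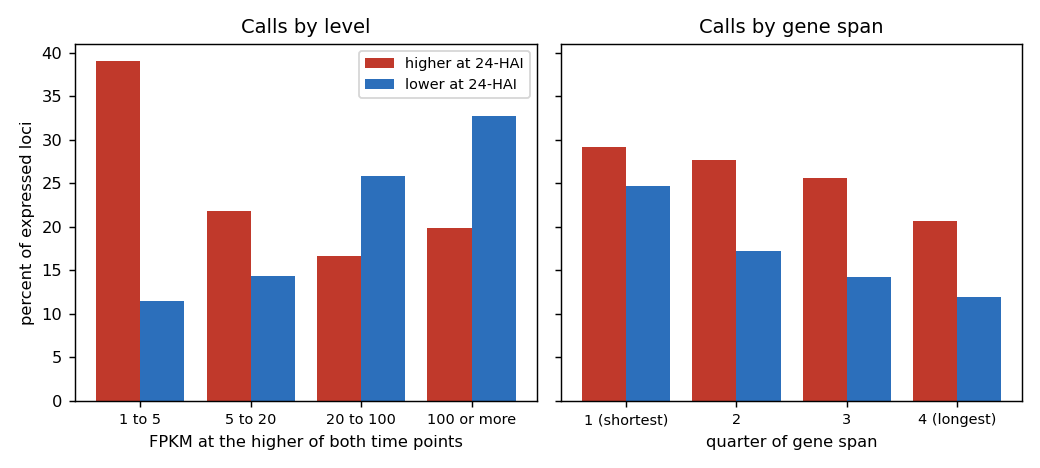
Percent of expressed loci that were higher (red) or lower (blue) at 24-HAI, by FPKM at the higher of both time points (left) and by class of gene span (right, 4 classes of equal size). Higher loci prevail at 1 to 5 FPKM (39.1% against 11.5% lower) and lower loci at 100 FPKM or more (32.7% against 19.8% higher), while both shares decline from the shortest to the longest class.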

How the data were processed

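Per the labels and the methods of the study, the authors used Trimmomatic 0.30 for trimming, TopHat 2.0.9 with Bowtie 2.1.0 for mapping against genome version 1.1, and estimated FPKM with Cufflinks 2.1.1. The deposited FPKM table has 1 value per locus and time point, and how replicates were combined is not given in the sources used here. Each column name gave its time point, and no column was left unmapped (0).

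The table holds 54801 entries. For the 647 loci with 2 entries, the one with the higher maximum was kept. Ratios were computed without a pseudocount, with limits of 2.4-fold (the smallest change the study describes for its calls) and 1 FPKM. Log2 changes used FPKM + 1. Computations used Python 3.11.15, numpy 2.4.6 and pandas 2.3.3, and plots matplotlib 3.10.9. Calls and timing classes were checked on simulated data. The design foresaw limma for replicate columns, but no test, interval or replicate check was possible with 1 value per group.

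Named genes are loci whose identifiers come from the text of the study, 7 ACC oxidase and 2 GA3ox1 genes that an earlier description of these data named partly for their values, and, in each direction, the 2 loci that changed most at 10 FPKM or more among loci sharing no values. Members and lists were chosen with earlier results of these data known. Lists and markers foreseen by RefSeq name could not be formed, since 0 identifiers matched. Coordinates are those of the table. Of the expressed loci, 4572 (14.0%) share all values with another locus and cannot be told apart from it, and values of near-identical paralogs are uncertain. Alternatives covered pseudocounts, filters, fold limits, 3 scalings and the treatment of double or identical entries.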

Additional observations from a re-analysis of the deposited data

How the results depend on the processing

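Higher and lower loci numbered 8410 and 5555. Without a minimum FPKM they numbered 15568 and 8916, with a minimum of 5 FPKM 4517 and 4407, and with a 4-fold limit 5867 and 2678. Under the other alternatives both counts stayed within 1.5 times these values, including 8164 and 5553 without loci listed at 0 (chosen after the values were seen), but the share of higher loci among calls was 48.6% after quantile normalization. The median log2 change of 0.06 turned to -0.12 with a minimum of 5 FPKM and to -0.091 after quantile normalization, and was 0.28 with equal sums. Scaling shifted this median by 0.13 (median ratio), -0.16 (quantile) or 0.21 (equal sums). Loci switched on and off numbered 3293 each after quantile normalization, which makes them equal by construction, against 5340 and 1561. The share of loci with less than 33.3% of the change at 12-HAI (42.6% of higher, 42.7% of lower loci) was 64.9% and 18.4% on linear FPKM, and with the limit set at the midpoint of the change 66.7% and 74.7%. With 0.1 FPKM in place of 1 FPKM before the log2 it was 30.8% and 49.1%, so the timing shares depend on the pseudocount as well as on the scale.

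Of the lists, the kinases had 1 higher gene after median-ratio scaling and after quantile normalization, and 0 lower after median-ratio scaling. With equal sums they had 1 higher and 0 lower. The GA list had 1 higher gene after quantile normalization and with equal sums. Other lists kept their counts within 1.5 times under the 3 scalings. No paired analysis was possible because the table holds 1 combined value per time point, and for the same reason no replicate could be left out. FPKM without counts set no limit of detection, so calls near 1 FPKM are the least certain.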
